A study of Homo sapiens with 12 samples.

Results

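The 9 genes described here are the ligands TGFB1 and TGFB2, the receptors TGFBR1 and TGFBR2, the signal transducers SMAD2, SMAD3 and SMAD4, and the inhibitors SMAD7 and SMURF1. They were picked by gene name, and all 9 were found once among the 20212 protein-coding genes of the deposited count table. PANC-1, an established human pancreatic cancer line with a duct epithelial origin, was grown as 6 cultures, of which 3 received the solvent DMSO and 3 received 50 nM rapamycin for 60 min. Rapamycin binds the protein FKBP1A, and the complex inhibits the mTORC1 kinase, which controls the translation of mRNA. Each culture gave 1 library of ribosome footprints (RF, the mRNA fragments that ribosomes protect from nuclease) and 1 of total RNA. All cultures were of this 1 cell line in serum-containing medium, and the treatment of the controls is named only as DMSO.

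Ligands of the TGF-beta family are secreted in a latent form. Once activated, they bind TGFBR2, which recruits and phosphorylates TGFBR1. TGFBR1 then phosphorylates SMAD2 and SMAD3, which pair with SMAD4, enter the nucleus and regulate transcription. SMAD7 occupies the receptor and brings in ubiquitin ligases such as SMURF1, which mark the receptor for breakdown. The pathway restrains the growth of normal epithelium, and SMAD4 is often lost in pancreatic cancer. FKBP1A, the rapamycin-binding protein, also binds TGFBR1 and holds its kinase inactive.

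Translation that depends on mTORC1 is best known for mRNAs with a 5′ terminal oligopyrimidine (TOP) tract, a C at the very 5′ end followed by a run of C or T. The start of the mRNA is shown for SMAD4 and TGFBR1, the members with an unadjusted p under 0.05 in the test of translation below, beside RPS6, a ribosomal protein gene that carries the tract. Each line gives the first 20 bases of the canonical transcript from the GENCODE annotation of GRCh37, 5′ to 3′, and capitals mark a leading run of C and T.
SMAD4, chr18:48556583-48556602, plus strand: atgctcagtggcttctcgac
TGFBR1, chr9:101867395-101867414, plus strand: ggcggctagggaggtggggc
RPS6, chr9:19380215-19380234, minus strand: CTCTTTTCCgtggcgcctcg
None of the 9 members began with a C or T. A C followed by at least 4 bases that are each C or T was found at the start of 908 of 19553 canonical coding transcripts, or 4.64%, and of 60 of 86 cytosolic ribosomal protein genes. The search reads only the annotated start, so it says nothing of other start sites used in these cells. The canonical transcript of TGFBR1 held only a small part of the RNA assigned to the isoforms of that gene, as given below.

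RF libraries were shallow and uneven, and total RNA libraries were deep. The RF counts summed to 303220, 881106 and 1574723 in DMSO cultures 1 to 3 and to 1255675, 792690 and 278835 in rapamycin cultures 1 to 3, and the RNA counts to between 78081241 and 94293744. A count of 0 allows up to 3 reads, which was 2.04 to 9.98 CPM (reads relative to library size after TMM scaling) in RF and at most 0.0388 CPM in RNA, for counting error only. Total RNA libraries of DMSO cultures 1 and 2 stood apart, with 16840 and 16858 genes detected against 19751 to 19847 in the other 4. The biological coefficient of variation was 54.9% in RF, 5.31% in RNA and 24.4% when both were fitted together. Of 10 markers of pancreatic duct epithelium, 8 had a median of at least 1 FPKM in total RNA, with CFTR near 0, and no acinar, endocrine, endothelial or fibroblast marker with a value reached that median. Of 5 leukocyte markers only CD68, a lysosomal protein that is not limited to leukocytes, did so.

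Total RNA of the pathway was led by SMAD3, and rapamycin left the levels of all 9 genes within narrow limits. FPKM, fragments scaled to transcript length and library size, was used to compare levels between genes. In DMSO cultures 1 to 3, SMAD3 had 125.9, 140 and 125.8 FPKM, and in rapamycin cultures 129.3, 149.8 and 129.2. This placed SMAD3 above 95.7% of genes. SMAD2, the other transducer phosphorylated by the receptor, had 59.4 ± 1.097 FPKM in DMSO and 60.1 ± 0.435 in rapamycin (SD, n = 3 each). SMAD4, their shared partner, had 30.9 ± 0.841 and 32.2 ± 2.24 FPKM (SD, n = 3 each), so each transducer was separated from the next over the DMSO cultures. The ubiquitin ligase SMURF1 followed at 21.8 ± 0.917 FPKM in DMSO (SD, n = 3). TGFB2 at 15.1 ± 1.90 FPKM and TGFBR2 at 13.2 ± 0.340 FPKM overlapped, as did SMAD7 at 10.1 ± 0.629 FPKM and TGFBR1 at 9.62 ± 0.796 FPKM (SD, n = 3 DMSO cultures each). TGFB1 was the lowest of the 9 at 4.33 ± 0.227 FPKM (SD, n = 3), above 31.5% of genes.

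**Figure D1:**
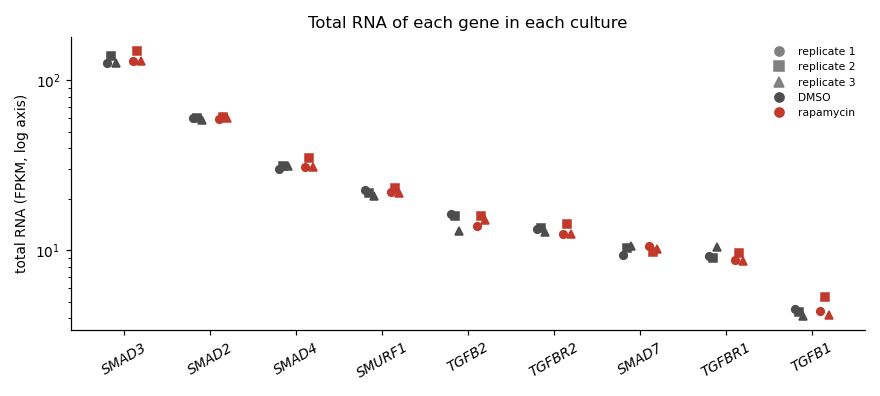
Total RNA of each gene in FPKM (log axis) in each culture, with DMSO in grey and rapamycin in red and the marker shape giving the replicate number. SMAD3 lies highest at 125.8 to 149.8 FPKM and TGFB1 lowest at 4.09 to 5.34 FPKM, and the treatments overlap for every gene.

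The order below SMAD3 depended on how RNA was scaled to length, and the part of isoform use in this was not tested. By RNA CPM per kilobase of the canonical transcript, a measure chosen after seeing the data, SMAD3 stayed first at 85.4 and SMAD2 came last at 4.48. SMAD2-207 and SMAD2-205 held 43.3% and 37.5% of the FPKM of SMAD2 in DMSO, while the canonical SMAD2-201 held 2.79%. Of the fragments assigned to SMAD2 isoforms, SMAD2-202 held 39.0% and SMAD2-207 only 13.0%. SMAD4 was spread likewise, with 11.9% of its FPKM but 51.8% of its fragments on the canonical SMAD4-201. The canonical TGFBR1-202, whose start is shown above, held 7.68% of the FPKM and 12.02% of the fragments of TGFBR1 in DMSO. TGFBR1-209 held 47.3% and 67.2%. SMURF1-202 held 88.5% of the FPKM and 97.2% of the fragments of SMURF1, so its level rested on 1 transcript. FPKM thus ranks SMAD2, SMAD4 and TGFBR1 largely with transcript models other than the canonical ones.

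Isoform shares of the 9 genes overlapped between treatments with few exceptions. Of 35 isoforms with a mean share of at least 5% of their gene's FPKM, 2 had all rapamycin cultures below all DMSO cultures and 1 had all above, against 4.74% and 5.17% of 35441 isoforms over all tested genes. SMAD3-202 held 14.2% ± 0.457 of SMAD3 in DMSO and 10.7% ± 2.93 in rapamycin (SD, n = 3 each). SMAD4-204, a retained intron transcript, held 13.8% ± 1.06 of SMAD4 in DMSO and 17.4% ± 1.51 in rapamycin (SD, n = 3 each). TGFBR1-201 held 9.20% ± 6.66 of TGFBR1 in DMSO and 1.93% ± 1.67 in rapamycin (SD, n = 3 each). Shares near the background count and estimated by a model of overlapping transcripts are descriptions only.

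No member passed the test for a change in total RNA after rapamycin. The fitted log2 fold change lay between -0.05 for TGFB2 and 0.09 for SMAD3, and the smallest adjusted p of the 9 was 0.766 (quasi-likelihood test of edgeR, Benjamini-Hochberg adjusted over 13329 genes). The 95% intervals of all 9 lay between -0.14 and 0.26, that is between 0.908-fold and 1.20-fold. Over all genes 0.0% were called and 5.82% had an unadjusted p under 0.05, against none of the 9 members. SMAD4 had 73.9, 74.5 and 72.9 CPM of RNA in DMSO and 74.3, 74.7 and 73.5 CPM in rapamycin. TGFBR1 had 44.6, 44.1 and 42.0 CPM of RNA in DMSO and 43.6, 46.5 and 43.7 CPM in rapamycin. For both genes the RNA of the treatments overlapped. Without DMSO cultures 1 and 2, the fitted changes of the 9 in RNA lay between -0.06 for TGFB2 and 0.12 for SMAD3. This leaves 1 DMSO culture, which is assumed to vary like the rapamycin cultures, so only the values are given.

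Translation efficiency (TE), the RF level divided by the total RNA level, spread the 9 genes over a wide range in the DMSO cultures. In DMSO the mean log2 TE was 4.75 ± 1.56 for SMURF1, 0.66 ± 0.43 for TGFB1, -0.07 ± 0.58 for TGFB2 and -0.71 ± 0.58 for SMAD7 (SD, n = 3 each). It was -1.40 ± 0.43 for SMAD4, -1.49 ± 0.33 for SMAD3, -1.57 ± 1.38 for TGFBR2, -1.70 ± 0.38 for TGFBR1 and -1.89 ± 0.51 for SMAD2 (SD, n = 3 each). The median of all 13329 genes was -0.53, so both receptors, the transducers and SMAD7 lay below it and both ligands and SMURF1 above it. SMURF1 was separated from TGFB1, the next gene, and all other neighbours in this order overlapped. Of 9433 genes with at least 10 CPM of RNA in DMSO, TGFB1 had a TE, not scaled to length, above 92.7% and TGFB2 above 81.2%. SMAD7 lay above 61.0% of these genes, so above their median though below that of all genes, and SMAD2 above 20.2%. Within cultures, TE of SMAD3 was above that of SMAD2 in 6 of 6, and in the other pairs compared the count was 1 to 5. TE has no term for length, so its order between genes may also follow untranslated length, which was not tested. The canonical SMAD2 transcript has 34626 bases, 1401 of them coding, against 6464 and 1275 for SMAD3. That SMAD2 transcript held only 2.79% of the FPKM and 14.5% of the fragments of SMAD2 isoforms in DMSO. Per kilobase, DMSO means were 29.3 RF CPM (coding) and 4.48 RNA CPM (canonical transcript) for SMAD2. They were 154 and 85.4 for SMAD3, 30.5 and 8.40 for TGFB1, and 39.2 and 8.70 for TGFB2.

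**Figure D2:**
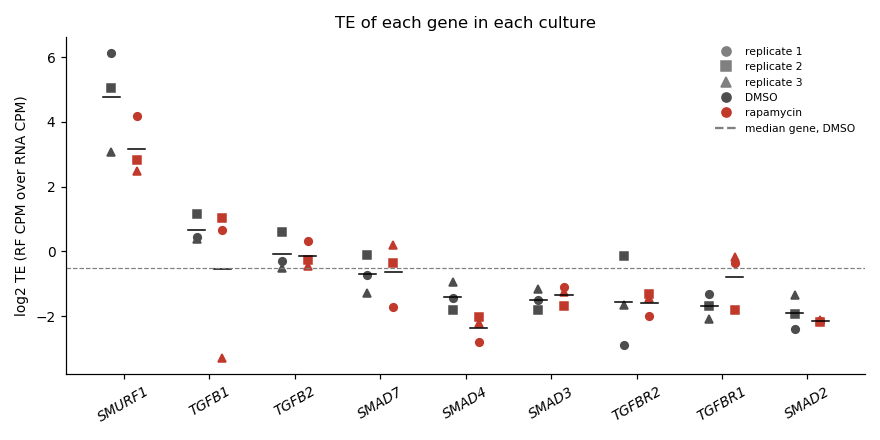
log2 TE of each gene in each culture, ordered by the DMSO mean, with black bars for the mean of 3 cultures and a dashed line at the median gene in DMSO (-0.53). SMURF1 lies between 2.47 and 6.14, above all others. Rapamycin lies wholly below DMSO only for SMAD4 among the 9, and TGFB1 in rapamycin culture 3 (-3.30) has 0 RF reads.

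TGFB1 and TGFB2, the ligands, did not pass the test for a change in TE. TGFB1 (ENSG00000105329, chr19:41807492-41859827 in GRCh37, as for all positions here) had 9, 40 and 43 RF reads in the DMSO cultures and 41, 42 and 0 in the rapamycin cultures. These were 27.7, 50.3 and 29.2 CPM against 34.0, 50.8 and 0.0 CPM, where the count of 0 allows up to 9.98 CPM. Rapamycin culture 3, the shallowest RF library, fell below the DMSO range and the other 2 overlapped it or lay just above it. The log2 fold change in TE of TGFB1 was -0.08 (SE 0.44, 95% interval -1.02 to 0.86), with an adjusted p of 0.962 by edgeR's quasi-likelihood test. By limma voom the value was -0.72, and the mean log2 TE per culture differed by -1.20 between treatments, with the culture at 0 reads included in both. TGFB2 (ENSG00000092969, chr1:218518678-218617961) had 40.0, 72.9 and 33.3 RF CPM in DMSO and 58.0, 39.9 and 33.3 in rapamycin, from 13, 58 and 49 against 70, 33 and 10 reads. Its treatments overlapped, and its log2 fold change in TE was -0.04 (SE 0.42, 95% interval -0.94 to 0.86), with an adjusted p of 0.981 by the same test. Together the intervals span 0.493-fold to 1.82-fold.

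The receptors had fitted values of opposite sign, and neither passed the test. TGFBR1 (ENSG00000106799, chr9:101866320-101916474), the kinase that phosphorylates SMAD2 and SMAD3, had 5, 9 and 11 RF reads in the DMSO cultures and 38, 9 and 11 in the rapamycin cultures. Its RF level was 15.4, 11.3 and 7.47 CPM in DMSO and 31.5, 10.9 and 36.6 CPM in rapamycin. Rapamycin cultures 1 and 3 lay above every DMSO culture, and rapamycin culture 2 lay within the DMSO range. The log2 fold change in TE of TGFBR1 was 1.32 (SE 0.46, 95% interval 0.34 to 2.30), with an unadjusted p of 0.0116 and an adjusted p of 0.272 by edgeR's quasi-likelihood test. In RF alone the change was 1.24 (SE 0.77), with an unadjusted p of 0.128 and an adjusted p of 0.9999 by the same test. Leaving out rapamycin culture 1 lowered the TE value to 0.85 and leaving out rapamycin culture 2 raised it to 1.75.

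TGFBR2 (ENSG00000163513, chr3:30648093-30735634), the receptor that binds the ligand first, varied widely between the DMSO cultures. The RF reads numbered 2, 44 and 25 in DMSO and 15, 21 and 6 in rapamycin, or 6.15, 55.3 and 17.0 against 12.4, 25.4 and 19.96 CPM. All 3 rapamycin cultures lay inside the DMSO range. Its log2 fold change in TE was -0.59 (SE 0.64, 95% interval -1.96 to 0.78), with an adjusted p of 0.746 by edgeR's quasi-likelihood test. Without DMSO culture 2 the value was 0.27, so its direction rested on that culture.

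SMAD2 and SMAD3, the transducers that the receptor phosphorylates, did not pass the test in TE. SMAD2 (ENSG00000175387, chr18:45335328-45457517) had RF levels of 27.7, 39.0 and 56.4 CPM without and 32.3, 32.7 and 33.3 CPM with rapamycin. The rapamycin cultures were close together inside the DMSO range. In TE the log2 fold change of SMAD2 was -0.44 (SE 0.31, 95% interval -1.11 to 0.22), with an adjusted p of 0.588 by edgeR's quasi-likelihood test. Without DMSO culture 3 it was -0.11. SMAD3 (ENSG00000166949, chr15:67356101-67487511) had the most RF reads after SMURF1, with 63, 126 and 351 in DMSO and 305, 170 and 69 in rapamycin. The RF level of 194, 158 and 238 CPM in DMSO overlapped 253, 206 and 230 CPM in rapamycin. It had the smallest SE of the 9 in this fit, at a log2 fold change in TE of 0.13 (SE 0.22, 95% interval -0.34 to 0.59), with an adjusted p of 0.851 by the same test. This interval spans 0.790-fold to 1.51-fold, and by limma voom the SE was 1.34.

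SMAD4 (ENSG00000141646, chr18:48554898-48611415), the partner shared by SMAD2 and SMAD3, was the only one of the 9 whose rapamycin cultures all lay below its DMSO cultures. It had 8, 15 and 52 RF reads in DMSO and 10, 13 and 4 in rapamycin. The RF level was 24.6, 18.8 and 35.3 CPM in DMSO and 8.29, 15.7 and 13.3 CPM in rapamycin, with the gap between 15.7 and 18.8 CPM set by culture 2 of each treatment. log2 TE was -1.45, -1.81 and -0.95 in DMSO and -2.79, -2.04 and -2.22 in rapamycin (p = 0.1 by a two-sided exact permutation test, which cannot go lower with 3 against 3). Of all genes 6.19% separated in this way in TE and 4.21% in RF, against 1 of 9 members in each, and none of the 9 lay wholly above DMSO, against 4.8% in TE and 5.24% in RF. The log2 fold change in TE was -1.22 (SE 0.44, 95% interval -2.15 to -0.28), a ratio of 0.430 between treatments, with an unadjusted p of 0.0142 and an adjusted p of 0.284 by edgeR's quasi-likelihood test. In RF alone it was -1.10 (SE 0.71), with an unadjusted p of 0.137 and an adjusted p of 0.9999 by the same test. Exons of SMAD4 overlap those of a readthrough gene. The value in TE was -0.84 without DMSO culture 3 and -1.52 without DMSO culture 2.

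**Figure D3:**
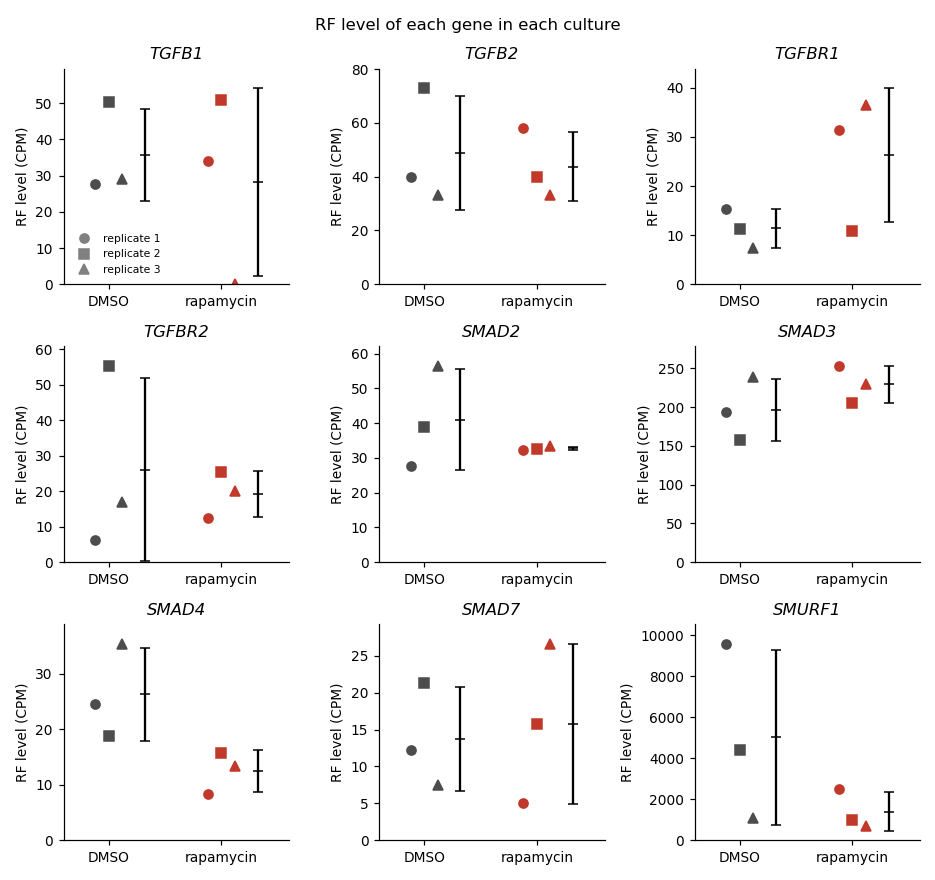
RF level in CPM of each gene in each culture (linear axes from 0, one scale per gene), with the mean and SD of 3 cultures in black beside the points. SMAD4 is the only gene of the 9 without overlap, at 18.8 to 35.3 CPM in DMSO and 8.29 to 15.7 CPM in rapamycin, and SMURF1 runs from 709 to 9576 CPM.

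SMAD7 (ENSG00000101665, chr18:46446223-46477335), the inhibitor that binds the receptor, had the fewest RF reads of the 9. It had 4, 17 and 11 RF reads in DMSO and 6, 13 and 8 in rapamycin, or 12.3, 21.4 and 7.47 against 4.97, 15.7 and 26.6 CPM. The treatments overlapped over nearly their whole range. The log2 fold change in TE of SMAD7 was -0.07 (SE 0.60, 95% interval -1.35 to 1.22), with an adjusted p of 0.978 by edgeR's quasi-likelihood test.

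SMURF1 (ENSG00000198742, chr7:98625063-98741731) stood apart from every other member in RF. It had 3113, 3520 and 1586 RF reads in the DMSO cultures and 2998, 816 and 213 in the rapamycin cultures, 12246 in all, while the other 8 members had between 59 and 1084 each. It made up 1.03% of all RF reads of DMSO culture 1 (95% exact binomial interval 0.991% to 1.06%), where it was the gene with rank 10. In rapamycin culture 3 its share was 0.0764% (95% exact binomial interval 0.0665% to 0.0874%), at rank 147. These intervals cover counting error only, not the spread between cultures. The share was 0.101% in DMSO culture 3 and 0.103% in rapamycin culture 2, both at rank 108. RNA of SMURF1 meanwhile was 135.9, 133.1 and 128.7 CPM in DMSO and 137.0, 139.1 and 128.5 CPM in rapamycin. Among the 9433 genes with at least 10 CPM of RNA, 33 had a higher TE in DMSO. The RF level of 9576, 4424 and 1077 CPM in DMSO overlapped 2485, 988 and 709 CPM in rapamycin, since DMSO culture 3 lay below rapamycin culture 1.

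The fitted change of SMURF1 in TE was the largest of the 9 in size, and its interval included 0. It was -1.86 on the log2 scale (SE 0.95, 95% interval -4.01 to 0.29), with an unadjusted p of 0.0826 and an adjusted p of 0.460 by edgeR's quasi-likelihood test. Per culture, log2 TE was 6.14, 5.06 and 3.07 in DMSO and 4.18, 2.83 and 2.47 in rapamycin (p = 0.2 by a two-sided exact permutation test). Without DMSO culture 1 the fitted value was -1.01, and without DMSO cultures 1 and 2 it was 0.32. Exons of SMURF1 overlap those of TRRAP, a gene on the opposite strand, and whether counting used strand is not given in the sources used here. Where along the transcript the RF reads of SMURF1 lie was not analysed here.

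**Figure D4:**
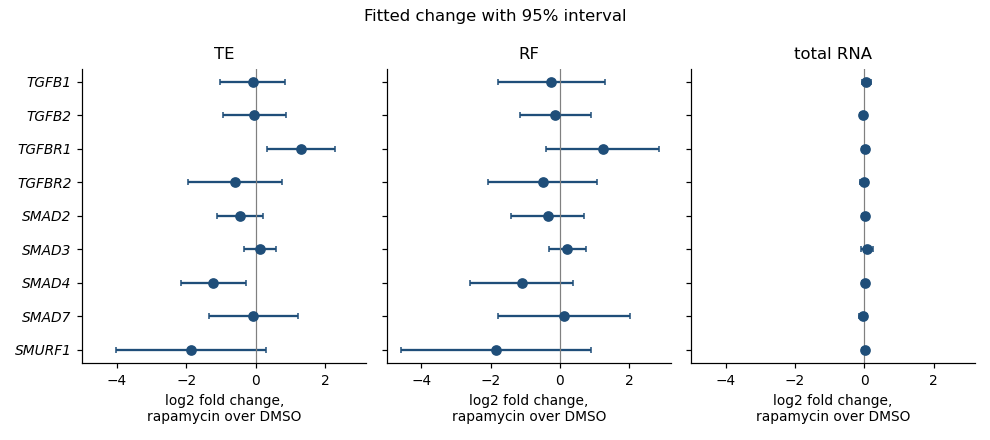
Fitted log2 fold change of rapamycin over DMSO with its 95% interval for each gene, in TE, RF and total RNA on the same scale. Intervals in RNA stay within -0.14 and 0.26, those in RF all include 0, and in TE those of TGFBR1 and SMAD4 do not include 0 in this fit, which is unadjusted and has no block on the culture.

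Over the 9 genes, no change in TE or in RF was called by edgeR's quasi-likelihood test at an adjusted p under 0.05, and over all 13329 genes 0.0% were called. Unadjusted p was under 0.05 in TE for 2 of 9, TGFBR1 and SMAD4, against 12.6% of all genes, and in RF for none of 9, against 3.68%. With a block on the culture, from which RF and RNA both come, none of the 9 had an unadjusted p under 0.05 in TE (0.155 for TGFBR1 and 0.0798 for SMAD4, adjusted p 1.0 for both by edgeR's quasi-likelihood test), and 287 genes were lower and 188 higher at that level. Without DMSO culture 3 or without rapamycin culture 1, SMURF1 was the only one of the 9 with an unadjusted p under 0.05 in TE, and without rapamycin culture 3 it was SMAD4 alone. Of the 9 members 7 had a negative fitted change in TE, against 53.7% of all genes, with a median of -0.08 against -0.06, but 4 did without DMSO culture 2 and 3 without DMSO cultures 1 and 2. DESeq2's Wald test of the same contrast gave an adjusted p of 0.0026 for SMAD4 and 0.00576 for TGFBR1. By this test 4.38% of genes were called lower and 4.93% higher. It gave SMAD2 an unadjusted p of 0.0109 (adjusted 0.0873) and SMURF1 one of 0.0466 (adjusted 0.219). Both tests give RF and RNA libraries 1 spread, although the spread differed between them, and on simulated counts the edgeR test of TE gave unchanged genes more small unadjusted p-values than its nominal level, which bears on the p-values and intervals of TGFBR1 and SMAD4. By contrast, limma voom with a weight per library type gave an adjusted p of 0.724 for SMAD4 and 0.751 for TGFBR1. Without the cultures of the smallest RF libraries, DMSO 1 and rapamycin 3, none of the 9 had an unadjusted p under 0.05 in TE (smallest adjusted p 0.711 by edgeR's quasi-likelihood test), and SMAD4 was at -1.27 and TGFBR1 at 1.19.

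The wider pathway was followed in 81 genes in 8 lists by role, of which 72 had enough reads to be tested and 9 did not. None was called in TE or in RNA by edgeR's quasi-likelihood test at an adjusted p under 0.05. Unadjusted p in TE was under 0.05 for 6 genes lower and 3 higher in rapamycin, against 6.42% and 6.17% of all genes, with a median of -0.03 for the log2 fold change in TE. Without the 9 members the counts were 5 lower and 2 higher of 63.

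Ligands besides TGFB1 and TGFB2 included GDF15, a stress-induced member of the family, at a log2 fold change in TE of 0.30 (SE 0.27), and INHBB, an activin subunit, at 0.46 (SE 0.55). Of 11 ligand genes tested, 2 had an unadjusted p under 0.05 and were lower, with only 10 and 29 RF reads in all. Of all genes, 6.42% were lower and 6.17% higher at that level. Among proteins that hold the ligand latent or activate it, LTBP1 was at -0.97 (SE 0.64) and LTBP3 at 0.93 (SE 0.54), both binding proteins of the latent form, and FURIN, the protease that cuts the precursor, at 0.48 (SE 0.54). None of 9 such genes had an unadjusted p under 0.05. Among 11 receptors ENG, a co-receptor, was at 0.89 (SE 0.48), and 1 gene was lower and 1, TGFBR1, higher at an unadjusted p under 0.05.

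FKBP1A gave 29, 117 and 150 RF reads in DMSO cultures and 271, 100 and 36 in rapamycin cultures. The log2 fold change in TE was 0.34 (SE 0.34), with an adjusted p of 0.722 by edgeR's quasi-likelihood test, and its RNA was 159 ± 6.47 CPM in DMSO and 175 ± 20.7 in rapamycin (SD, n = 3 each). STRAP, which binds the receptor with SMAD7, was at -0.10 (SE 0.37) in TE. SMAD1, which carries BMP signals, was at 0.94 (SE 0.49) in TE, from 2, 5 and 19 RF reads against 30, 7 and 7. Among ubiquitin ligases and deubiquitinases, WWP1 was at 0.74 (SE 0.63) and USP15 at 0.47 (SE 0.40), and of the 7 genes in that list 4, SMURF1 included, had a negative value and 3 a positive one. The corepressors SKIL and TGIF1 were at -0.60 (SE 0.45) and -0.38 (SE 0.26). In the list of SMAD partners and corepressors, which also holds coactivators, 8 of 9 genes had a negative value, against 53.7% of all genes. Of these 9, 1 was lower at an unadjusted p under 0.05, against 6.42% of all genes. RBL1, a pocket protein that joins SMAD3 on some promoters, was at 1.62 (SE 0.88) from 0, 0 and 16 RF reads against 33, 11 and 0, with 0 reads in libraries of both treatments.

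Among 14 target genes of the pathway tested, 1 was lower and 2 were higher at an unadjusted p under 0.05, against 6.42% and 6.17% of all genes. ID2, an inhibitor of differentiation factors, had 8, 29 and 35 RF reads in DMSO and 18, 12 and 4 in rapamycin, and a log2 fold change in TE of -0.94 (SE 0.34), with an unadjusted p of 0.0159 and an adjusted p of 0.291 by edgeR's quasi-likelihood test. SNAI1, a repressor of epithelial genes, had 2, 12 and 2 RF reads in DMSO and 23, 14 and 7 in rapamycin, and a log2 fold change in TE of 1.73 (SE 0.63), with an unadjusted p of 0.0149 and an adjusted p of 0.287 by the same test. JUNB, an AP-1 subunit with far more reads, was at 0.53 (SE 0.33). None of the target genes named here passed the adjustment in TE or was called in RNA.

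**Figure D5:**
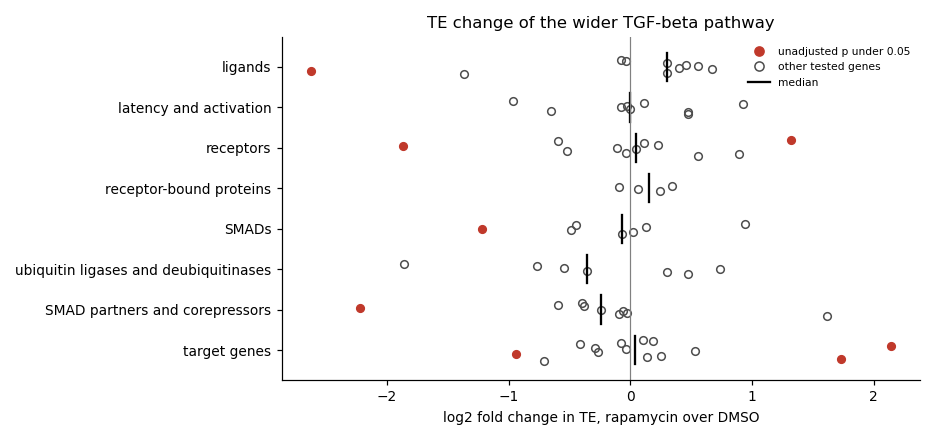
Fitted log2 fold change in TE of rapamycin over DMSO for the tested genes of 8 pathway lists, with black bars for list medians and filled red points for an unadjusted p under 0.05. List medians lie between -0.36 for ubiquitin ligases and deubiquitinases and 0.30 for ligands. INHBA, with 0 RF reads in all rapamycin cultures, counts in its median but is not drawn.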

How the data were processed

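Total RNA and RF of 6 PANC-1 cultures were sequenced. The authors deposited counts per protein-coding gene, made with HISAT2 on GRCh37 and featureCounts after filtering and trimming of RF reads and removal of ribosomal RNA. For total RNA the authors also deposited FPKM per gene and isoform, and isoform fragments as a normalized signal, from Cuffnorm of Cufflinks 2.2.1 per the submitters' processing notes. Other versions are not given in the sources used here. The authors' own TE per treatment, fold change and p-values, and a column headed FPKM that equals the mean DMSO RNA count, stand in the count table and were not used, nor was the normalized table per gene.

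Counts were analysed with edgeR 4.0.16 in R 4.3.3 (TMM within each library type, robust quasi-likelihood fits, at least 10 counts summed over RF and 10 over RNA, adjusted p over all genes tested). The TE change is the treatment by library type interaction, in place of RiboDiff, which was not run. CPM per culture used a prior count of 2 on the log2 scale. The alternatives were DESeq2 1.42.0, limma 3.58.1, other filters and scalings, blocks and leaving out cultures. On simulated counts the TE test recovered the fold changes given, but returned more small unadjusted p-values for unchanged genes than its nominal level, and the tests of RF and of RNA alone did not. The series' design text calls the samples of a treatment biological replicates.

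The 9 members, the pathway lists and the markers were chosen with earlier results of these data known. All members are named. From each list at most 3 genes were named, those with the smallest unadjusted p in TE among genes with at least 60 RF counts. FKBP1A was also named, and INHBA and PMEPA1 were named after their values were seen. SMAD4 also shares exons with a readthrough gene, and TGFB1 with HNRNPUL1. Positions, transcripts and sequences come from GENCODE's lift to GRCh37, matched by Ensembl identifier for all 9; the authors' annotation version may differ. Protein sequences were not used here. The level of 1 of the duct markers and the transcript start of 1 member are not reported here.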

Additional observations from a re-analysis of the deposited data

How the results depend on the processing

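For the 9 members, no alternative in RNA and no filter, scaling or left-out culture in TE or RF brought an adjusted p under 0.05. By the Wald test of DESeq2, 582 genes were called lower and 654 higher in TE, 1 and 4 in RF and 4 and 25 in RNA. A block on the replicate number, which the treatments share without pairing, called 0 lower and 1 higher in TE and none in RNA. In RF it called 2 lower and 4 higher, among them SMURF1 at an adjusted p of 0.0117 (edgeR). In TE the same block gave SMURF1 an unadjusted p of 0.00197 and an adjusted p of 0.365 (edgeR). Pairing was read from deviations of log2 CPM from the mean of each treatment, correlated over genes between same-numbered libraries. Pearson's r of these deviations, not of the levels, was -0.118, -0.06 and -0.07 in RF and -0.107, -0.119 and -0.216 in RNA. A block on the culture, which ties RF to RNA by design, called none in TE, and TGFBR1 and SMAD4 no longer had an unadjusted p under 0.05. By the same deviations, r of RF with RNA of the same culture was -0.011, -0.060 and -0.096 in DMSO cultures 1 to 3. In rapamycin cultures 1 to 3 it was 0.008, -0.004 and -0.032.

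A minimum sum of 1 count called 10 genes lower and 10 higher in RF. limma-trend on log2(FPKM + 1) called 2 lower and 2 higher in RNA, with a pseudocount of 0.1 it called 3 and 2, and with no minimum 3 and 2. Leaving out 1 culture gave 0 to 331 genes lower and 0 to 65 higher in TE, 0 to 1 and 0 to 5 in RF, and 0 to 4 and 0 to 683 in RNA, with the highest counts in TE and RNA without DMSO replicate 3. The FPKM rank held for 1 member by RNA reads per kilobase of exon, 0 by RF CPM per kilobase of coding sequence and 3 by canonical transcript length.

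Signs that turned were all of uncalled values, and their cause was not tested. In TE they were TGFB2 0.026 (voom) and SMAD7 0.0079 (DESeq2), 0.11 (block on the number) and 0.071 (block on the culture). In RF they were TGFB2 0.080 and SMAD7 -0.17 (voom). In RNA they were TGFBR1 -0.0795 and SMAD7 0.0107 by FPKM with or without a minimum, and -0.087 and 0.0117 with a pseudocount of 0.1, TGFBR2 0.0094 (minimum of 60), and SMAD2 -0.0040 and SMAD4 -0.0084 (minimum of 1). Mean differences per culture were TGFB2 0.013 and TGFBR2 0.067 without TMM, and TGFBR2 0.029 with a prior count of 0.5.

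Alternatives chosen after seeing the data also turned signs. Without DMSO cultures 1 and 2 they were, in TE, TGFB1 0.27, TGFB2 0.57, TGFBR2 0.060, SMAD3 -0.17, SMAD7 0.63 and SMURF1 0.32, in RF, TGFB1 0.081, TGFB2 0.43, TGFBR2 0.17, SMAD3 -0.046 and SMURF1 0.38, and in RNA, TGFBR2 0.049 and SMAD7 0.025. Without the cultures of the smallest RF libraries they were TGFB1 0.063 in TE, TGFB1 0.098 and SMAD7 -0.47 in RF, and TGFBR2 0.038 in RNA.

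Without 1 culture, the fitted log2 change in TE ranged from -0.42 to 0.22 for TGFB1, -0.36 to 0.53 for TGFB2, -1.12 to 0.27 for TGFBR2, -0.047 to 0.31 for SMAD3 and -0.65 to 0.63 for SMAD7. In RF it ranged from -0.88 to 0.23 for TGFB1, -0.40 to 0.30 for TGFB2, -0.90 to 0.57 for TGFBR2 and -0.41 to 0.63 for SMAD7. In RNA it ranged from -0.071 to 0.038 for TGFBR2, -0.0031 to 0.023 for SMAD2, -0.015 to 0.14 for SMAD3 and -0.058 to 0.015 for SMAD7. For 7 members the RF counts summed to only 59 to 233 reads, while SMURF1, with 12246, had the largest SE of the 9 in RF.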

Other observations

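Genes whose RF level followed a member most closely over the 6 RF libraries were found among genes with at least 100 RF reads in all. For SMAD4 they were MAD2L2 (Pearson's r of log2 RF CPM 0.997), MDH1 (0.966) and BIRC3 (0.964), with 28 of 6130 genes above 0.9. For TGFBR1 they were DDX43 (0.988), MRPS35 (0.977) and HNRNPAB (0.975), with 14 of 6131 genes above 0.9. The points share libraries and depth, and they are given as a description.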
